A study of Canis lupus familiaris with 222 samples.

Results

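Simple carcinomas with lymphatic invasion were compared with simple carcinomas without it. Simple carcinomas are mammary tumors built from a single epithelial cell type. The tumors were 63 simple carcinomas among the 158 canine mammary tumors (CMTs) of a series of 222 RNA-seq libraries, taken by their histological diagnosis in the study's clinical table. Lymphatic invasion, recorded in the sample labels as present or absent, was present in 14 of them and absent in 49. The other 2 tumors of the series with invasion were carcinosarcomas and were not part of the comparison. All tumors arose spontaneously in female dogs and each of the 63 came from a different dog. Dogs with invasion were 13.7 ± 2.49 years old (SD, n = 14) and dogs without it 12.0 ± 2.97 years old (SD, n = 44, since 5 had no age given). Both groups held neutered and intact dogs. Adjacent normal mammary tissue was also sequenced in 9 dogs with invasion and 12 without. The tissue was bulk, so fewer cells of a type and less RNA per cell cannot be told apart in any value given here.

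Lymphatic invasion means that tumor cells are found inside lymphatic vessels at the margin of the tumor or in the draining lymph nodes, and it is the usual first route by which mammary carcinomas spread. Grade summarises how far a carcinoma has lost tubule formation, how irregular its nuclei are and how often its cells divide, with grade 3 the least differentiated. Solid carcinomas grow as sheets without lumina, whereas tubulopapillary carcinomas keep tubules or papillae.

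Expression was measured as FPKM, a count of sequenced fragments scaled to transcript length and library size, and differences were taken on log2(FPKM + 1), which understates the change of weakly expressed genes. The tumors with invasion had 52280834 to 94425088 mapped reads and those without had 52159703 to 147634076, so depth overlapped. Mapping rates lay between 87.2% and 92.7% with invasion and between 66.6% and 93.1% without, the lowest being that of CMT-774, a tumor without invasion. The genes carry Ensembl identifiers that no table used here pairs with names. Marker genes of lymphatic vessels, of other cell types or of proliferation were therefore not analysed here, and the labelled tissue was not checked by markers.

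Invasion went together with grade. Of the tumors with invasion, 13 of 14 were grade 3 (92.9%, exact 95% interval 66.1% to 99.8%), against 7 of 49 without it (14.3%, 5.94% to 27.2%). Fisher's exact test, two-sided and adjusted over 11 clinical features, gave p = 9.92e-07. None of the 30 grade 1 tumors had invasion and 1 of the 13 grade 2 tumors did.

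Histological type followed the same division. Solid or anaplastic tumors were 12 of the 14 with invasion (85.7%) and 7 of the 49 without (14.3%; Fisher's exact test, adjusted p = 7.19e-06). The basal expression class was given to 10 of 14 (71.4%) and 11 of 49 (22.4%; Fisher's exact test, adjusted p = 0.0043). A negative estrogen receptor status was recorded in 6 of 14 (42.9%) and 8 of 49 (16.3%), which did not pass (Fisher's exact test, adjusted p = 0.116). Adjacent normal tissue was sequenced for 9 of 14 (64.3%) and 12 of 49 (24.5%; Fisher's exact test, adjusted p = 0.0255). Age did not pass (permutation test, adjusted p = 0.101), nor did HER2 score, neuter status, membership of NMF2 (an expression cluster of the study), surgery year 2017 or mapping rate.

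Among grade 3 tumors alone the groups were more alike in type and class. Solid or anaplastic type covered 12 of 13 with invasion and 6 of 7 without, and the basal class 10 of 13 and 5 of 7 (Fisher's exact test, adjusted p = 1.0 for both). With 7 tumors on one side the intervals were wide, 42.1% to 99.6% for 6 of 7. Adjacent normal tissue was again unequal, sequenced for 9 of the 13 grade 3 dogs with invasion and for 0 of the 7 without (Fisher's exact test, adjusted p = 0.0472 over 10 features).

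Without grade in the model, 117 of 14477 genes tested differed between tumors with and without invasion by at least 1 on the log2 scale with an adjusted p below 0.05, and were called (0.808% of genes; limma with Benjamini-Hochberg adjustment). Of these, 58 were higher with invasion (0.401%) and 59 lower (0.408%). Without the minimum difference 318 genes passed (2.2%). The count rested partly on single tumors with invasion: it was 59 without CMT-105, 66 without CMT-193, 51 without CMT-439 and 187 without CMT-471. It was 131 without CMT-774. Within surgeries of 2017, which held 11 tumors with and 32 without invasion, 7 genes were called, while 2016 and 2018 held too few tumors with invasion (2 and 1) to be fitted alone.

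ENSCAFG00000031273 rose most among the genes higher with invasion that had a mean of at least 5 FPKM. In the 14 tumors with invasion its lowest, median and highest levels were 3.15, 31.8 and 2139 FPKM, and in the 49 without invasion 0, 6.24 and 185 FPKM. The groups overlapped, but 13 of 14 tumors with invasion lay above the median of those without. The log2 difference was 2.31 ± 0.58 (SE), a 4.95-fold difference (limma, adjusted p = 0.0202). The top value belonged to CMT-743, the single tumor with invasion operated in 2018. Without CMT-743 the difference was 1.85 and no longer passed (limma, adjusted p = 0.0611), as also without CMT-105 (2.24, adjusted p = 0.0508). The difference was 3.99 within 2016, 1.46 within 2017 and 7.28 within 2018.

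ENSCAFG00000019362 was the second. Its lowest, median and highest levels were 1.24, 23.7 and 96.7 FPKM with invasion and 0.0389, 2.02 and 119.6 FPKM without. Tumors with invasion fell into a lower set and a higher set: 7 lay below 9 FPKM and 7 above 38 FPKM, and 12 of 14 exceeded the median of tumors without invasion. The log2 difference was 2.19 ± 0.54 (SE; limma, adjusted p = 0.0178). It was 1.95 within 2016, 2.31 within 2017 and 1.48 within 2018. Without CMT-439 it was 2.04 and did not pass (limma, adjusted p = 0.0523). Its level also increased with grade where there was no invasion, with medians of 1.73, 3.76 and 21.4 FPKM in grades 1, 2 and 3.

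ENSCAFG00000007857 fell most. Its lowest, median and highest levels were 0, 2.06 and 412 FPKM with invasion and 0, 53.8 and 532 FPKM without. Of the 14 tumors with invasion, 12 lay below the median of those without, and the other 2, CMT-247 and CMT-471, stood far above their group at 242 and 412 FPKM. The log2 difference was -2.81 ± 0.68 (SE), 7.03-fold lower (limma, adjusted p = 0.0157). It was -2.51 within 2016, -2.69 within 2017 and -4.58 within 2018. In tumors without invasion the median went from 58.8 FPKM in grade 1 to 47.9 in grade 2 and 7.80 in grade 3.

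ENSCAFG00000008756 was the next. Its lowest, median and highest levels were 0.618, 12.2 and 188 FPKM with invasion and 4.66, 106.6 and 516 FPKM without. Only 1 of the 14 tumors with invasion, CMT-471, lay above the median of those without. The log2 difference was -2.38 ± 0.51 (SE), 5.21-fold lower (limma, adjusted p = 0.00675). It was -3.26 within 2016, -2.14 within 2017 and -2.66 within 2018. The medians of tumors without invasion were 131 FPKM in grade 1, 94.7 in grade 2 and 19.2 in grade 3. Over the 49 tumors without invasion, which share the library method and the grade mix, log2 levels of ENSCAFG00000007857 and ENSCAFG00000008756 correlated with Pearson's r = 0.61 (Spearman's rho = 0.48), a description without a test.

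**Figure D1:**
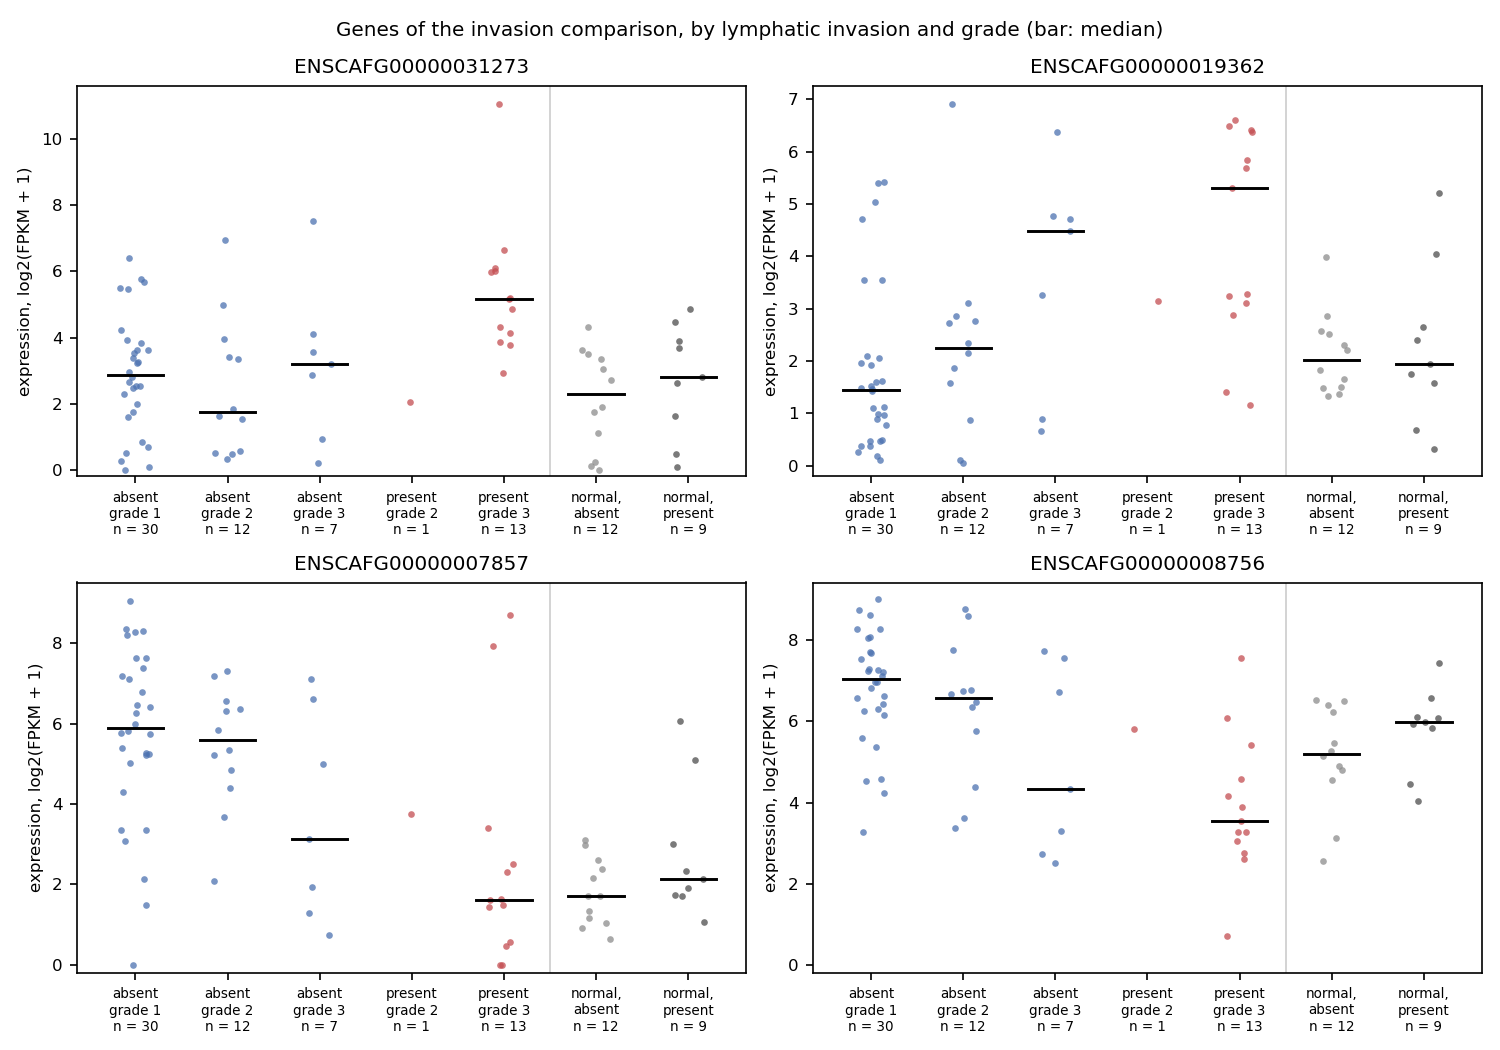
Expression on log2(FPKM + 1) of the 4 genes with the largest differences, each point a library, for tumors without invasion (blue) and with invasion (red) by grade and for adjacent normal tissue (grey), with bars at the median of groups of 2 or more. Tumors with invasion overlap those without in every panel, and the medians of grade 3 tumors without invasion lie toward those of tumors with invasion, least so for ENSCAFG00000031273 (8.08 FPKM against 35.2 FPKM in grade 3 tumors with invasion).

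The called genes varied in abundance. Of the 58 higher genes, 55 had a mean of at least 5 FPKM with invasion, with a median of group means of 24.4 FPKM against 7.77 FPKM without. Of the 59 lower genes, 51 reached 5 FPKM without invasion, with 13.7 FPKM against 4.58 FPKM. Their log2 differences ran from 1.01 to 2.31 and from -2.81 to -1.0. Levels of the higher genes correlated with one another over the 49 tumors without invasion by a median of r = 0.29. For the lower genes the median was 0.31, and for higher with lower genes -0.15. These tumors are of mixed grade and helped to choose the genes. The correlation of other gene pairs is not given, so the values have no background.

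Single tumors with invasion did not show the difference to the same extent. For each tumor it was counted on how many of the called genes it lay beyond the median of the tumors without invasion, which describes the choice of genes and tests nothing. CMT-262 and CMT-439 lay above it on 58 of 58 higher genes and below it on 59 of 59 lower genes. CMT-471, tubulopapillary and grade 3, did so on 38 of 58 and 19 of 59. CMT-613, solid and grade 3, was the lowest on the higher genes (27 of 58) but had 58 of 59 lower genes. The grade 2 tumor with invasion, CMT-360, had 51 of 58 and 46 of 59.

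The same counts in tumors without invasion followed grade by their medians, with overlap between the grades. The genes were chosen against these 49 tumors, 30 of them grade 1, and the median that defines the counts is also theirs. On how many of all genes tested each tumor lay beyond it was not counted, so the counts have no background. The median was 24 of 58 higher genes in grade 1 tumors, 36.5 in grade 2 and 45 in grade 3, against 51.5 with invasion. For the lower genes it was 24 of 59 in grade 1, 30.5 in grade 2 and 41 in grade 3, against 57.5 with invasion. Among grade 3 tumors without invasion the counts ran from 29 to 55 and from 21 to 52. Single tumors of lower grade reached as far. CMT-148, grade 2, had 54 of 58 and 55 of 59, and CMT-109, grade 1, had 28 of 58 and 56 of 59. The carcinosarcomas with invasion, which had no part in choosing the genes, differed from each other: CMT-340 had 53 of 58 and 57 of 59, and CMT-577 had 17 and 23. The carcinosarcoma without invasion, CMT-231, lay between them with 24 of 58 and 39 of 59.

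The mean log2 level of the higher genes had a median of 2.29 in grade 1, 2.58 in grade 2 and 3.21 in grade 3 tumors without invasion, and 4.08 with invasion. For the lower genes these medians were 3.74, 3.35, 2.87 and 1.95. In tumors without invasion, 58 of the 58 higher genes had a higher mean in grade 3 than in grade 1, and 50 of the 59 lower genes had a lower one. These tumors also served as controls in choosing the genes, and the share of all genes tested with such means is not given. The counts therefore have no background to be judged by.

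With grade as a covariate, 2 of 14477 genes were called, both lower with invasion (0.0138%; limma, Benjamini-Hochberg adjustment), and 0 were higher. At an unadjusted p under 0.05 there were 877 genes (6.06%), 519 higher and 358 lower. Since no grade 1 tumor had invasion, this estimate rests on grades 2 and 3. The 2 calls were not stable to single tumors. There were 0 without CMT-159, CMT-183, CMT-193, CMT-318, CMT-439, CMT-613 or CMT-644. There was 1 without CMT-013, CMT-077, CMT-105, CMT-252, CMT-360 or CMT-495, and there were 5 without CMT-496. There were also 0 in grades 2 and 3 alone, where the adjusted p was 0.398 for ENSCAFG00000013961 and 0.323 for ENSCAFG00000014361, with the same log2 differences. Both calls were lost as well within 2017, without the tumors of the expression cluster NMF3, without the filter on low values, and without the 4 tumors that the sample labels name as simple adenomas.

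The first of these genes was ENSCAFG00000013961. Its lowest, median and highest levels were 0.0196, 1.26 and 12.4 FPKM with invasion and 0.821, 7.60 and 28.5 FPKM without. Of the 14 tumors with invasion, 7 lay below the lowest tumor without it, and only CMT-471 lay above that group's median. The log2 difference with grade was -2.09 ± 0.41 (SE), 4.25-fold lower (limma, adjusted p = 0.0308), and without grade it was -1.75 ± 0.29 (adjusted p = 0.0011). Leaving out single tumors, it was called in 51 of 63 fits, with adjusted p between 0.00347 and 0.23. Unlike ENSCAFG00000007857 and ENSCAFG00000008756, its level did not fall with grade where invasion was absent, the medians being 7.47, 6.95 and 14.2 FPKM in grades 1, 2 and 3.

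The second gene, ENSCAFG00000014361, had a mean under 5 FPKM and is named because it completes the 2 calls, after its values were seen. Its lowest, median and highest levels were 0.0616, 1.64 and 3.67 FPKM with invasion and 0.409, 4.09 and 19.1 FPKM without. All 14 tumors with invasion lay below the median of those without, and 4 lay below their minimum. The log2 difference with grade was -1.60 ± 0.31 (SE), 3.04-fold lower (limma, adjusted p = 0.0308), and without grade -1.02 ± 0.23 (adjusted p = 0.00857). It was called in 55 of 63 fits that left out a tumor, with adjusted p between 0.00113 and 0.23. Medians without invasion were 3.69, 3.37 and 6.70 FPKM in grades 1, 2 and 3. Within surgery years and without grade, the difference for this gene was -0.37 in 2016, -1.28 in 2017 and -0.33 in 2018.

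Within grade 3 the groups separated fully for ENSCAFG00000014361. The gene was chosen in a fit that includes these tumors, so the separation is no independent evidence. How many other genes separate them was not counted. The 13 tumors with invasion reached at most 3.67 FPKM, and the 7 without started at 3.78 FPKM, with a median of 6.70. The log2 difference was -1.96 ± 0.34 (SE), with an unadjusted p of 9.22e-06 and an adjusted p of 0.132 (limma), so that it was not called. ENSCAFG00000013961 differed by -2.18 ± 0.52 in the same tumors (limma, unadjusted p = 0.000378, adjusted p = 0.9995).

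**Figure D2:**
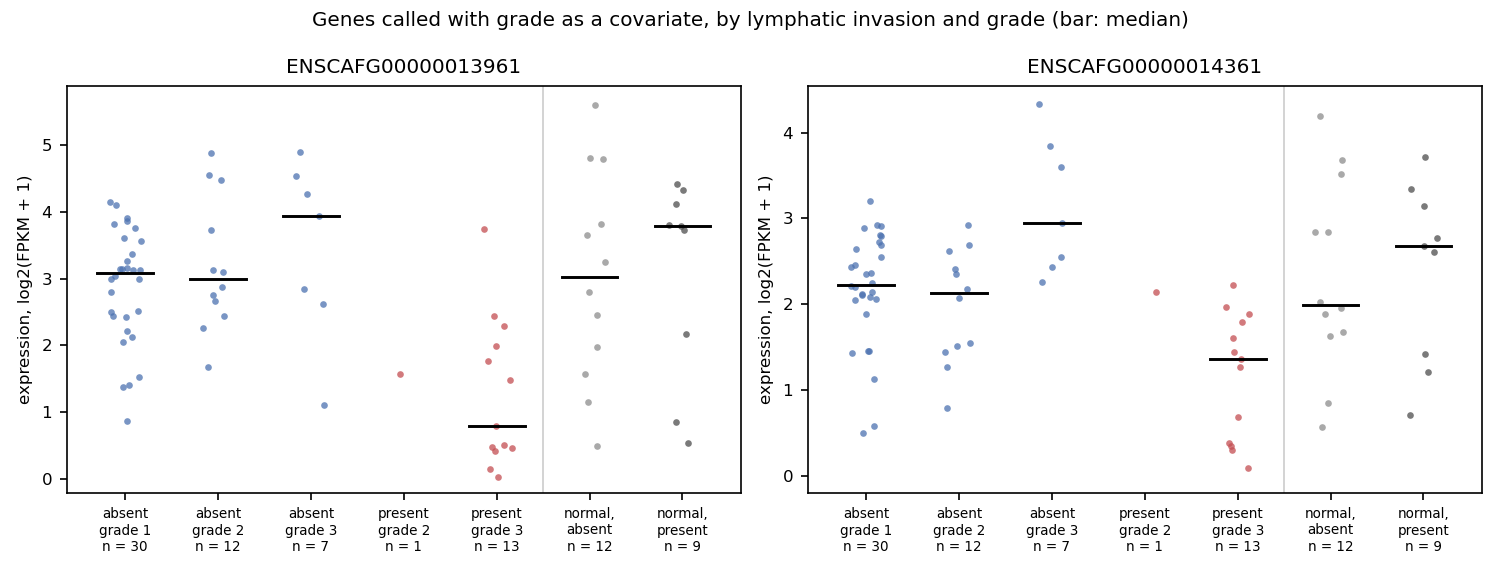
Expression on log2(FPKM + 1) of the 2 genes called with grade as a covariate, each point a library, for tumors without invasion (blue) and with invasion (red) by grade and for adjacent normal tissue (grey), with bars at the median. For ENSCAFG00000014361 the 13 grade 3 tumors with invasion all lie below the 7 without, and for ENSCAFG00000013961 they overlap, CMT-471 being the highest at 12.4 FPKM. The tumors shown took part in choosing the genes.

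No gene was called as higher with grade in the model. The genes with the smallest p in that direction, given here as not called, were ENSCAFG00000008556 and ENSCAFG00000014214. ENSCAFG00000008556 had a narrow range, with a lowest, median and highest level of 5.33, 7.22 and 10.1 FPKM with invasion and 3.26, 5.37 and 7.90 FPKM without. Of the 14 tumors with invasion, 13 exceeded the median of the others and 5 exceeded their maximum. Its log2 difference was 0.49 ± 0.11 with grade (SE; limma, adjusted p = 0.217) and 0.43 ± 0.08 without (adjusted p = 0.00275, below the minimum difference).

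ENSCAFG00000014214 had a lowest, median and highest level of 7.28, 15.2 and 39.7 FPKM with invasion and 0.345, 11.5 and 25.1 FPKM without. Most tumors with invasion lay within the range of the others, and 3 exceeded it. The log2 difference was 1.32 with grade (limma, adjusted p = 0.241) and 0.56 without. The larger value with grade went with low levels in the 7 grade 3 tumors without invasion, whose median was 4.21 FPKM against 11.6 and 11.7 FPKM in grades 1 and 2. Without CMT-496 the gene passed, with an adjusted p of 0.0293.

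Within grade 3, comparing 13 tumors with invasion and 7 without, 0 of 14316 genes were called (0%; limma), the smallest adjusted p being 0.132. At an unadjusted p under 0.05 there were 419 genes (2.93%). The fit without grade, the fit with grade and the grade 3 fit share tumors, and their values for the 117 genes are given side by side. The median log2 difference of the 58 higher genes was 1.23 without grade, 0.56 with grade and 0.50 within grade 3. For the 59 lower genes it was -1.39, -0.78 and -0.81. The medians over all genes tested were -0.01, 0.02 and 0.02. The first values are the ones by which the genes were chosen.

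With grade the differences of these genes were smaller and their errors larger. In that fit 16 of the 58 higher genes and 18 of the 59 lower genes differed by at least 1 on the log2 scale. At an unadjusted p under 0.05 (limma) there were 15 and 19, against 3.58% and 2.47% of all genes. The genes were chosen in the same tumors for a difference of that size, so neither count is independent evidence. The share of all genes with that size is not given. The median SE of the higher genes was 0.31 without grade, 0.42 with grade and 0.52 within grade 3, and that of the lower genes 0.33, 0.46 and 0.53. Over all genes tested it was 0.19, 0.27 and 0.29. The 4 genes named first ended at 1.76 (95% interval 0.13 to 3.38) for ENSCAFG00000031273, 0.86 (-0.61 to 2.32) for ENSCAFG00000019362, -1.30 (-3.16 to 0.56) for ENSCAFG00000007857 and -0.97 (-2.33 to 0.39) for ENSCAFG00000008756 with grade. None was called (limma, adjusted p from 0.792 to 0.907).

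With histological type (solid or anaplastic against other) as the covariate in place of grade, 0 genes were called (limma), with 790 at an unadjusted p under 0.05. With both grade and type there were 2. Among grade 3 tumors of solid type alone, the anaplastic tumor left out, 11 had invasion and 6 did not. There 0 genes were called, with 414 at an unadjusted p under 0.05. Grade, type and invasion overlapped so far in these tumors that their parts in the 117 genes cannot be told apart.

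Complex carcinomas, in which the myoepithelial cells proliferate along with the epithelium, gave a view of grade without invasion in tumors that had no part in choosing the genes. None of the 33 complex carcinomas had invasion, and 9 of grade 2 or 3 were compared with 24 of grade 1. Of the 9, only 3 were grade 3 and 6 were grade 2, whereas 13 of the 14 simple carcinomas with invasion were grade 3. The comparison was therefore mostly of grade 2 with grade 1, not of the grades that divided the tumors by invasion. By the rule used above 6 of 14463 genes were called (0.0415%; limma), 1 higher in the higher grades (0.00691%) and 5 lower (0.0346%). Of the 58 genes higher with invasion, 54 were expressed enough to be tested, and 43 of them were higher in the higher grades, against 45.4% of all genes tested. At an unadjusted p under 0.05, 27 of the 54 were higher (background 5.7%) and 0 lower. Of the 59 genes lower with invasion, 53 were lower in the higher grades, against 54.6% of all genes, and 28 were so at an unadjusted p under 0.05 (background 8.69%), with 0 higher.

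The median log2 difference between the complex carcinomas was 0.53 for the higher genes and -0.64 for the lower genes, and -0.03 over all genes. Not every named gene followed. ENSCAFG00000031273 differed by -1.16 ± 0.65 (SE) and ENSCAFG00000019362 by -0.51 ± 0.43, both opposite to their difference by invasion and neither called (limma, adjusted p = 0.412 and 0.606). The 2 genes called with grade in the model differed by -0.23 ± 0.27 (ENSCAFG00000013961) and -0.18 ± 0.27 (ENSCAFG00000014361), the smallest sizes among the genes called for invasion and named here.

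**Figure D3:**
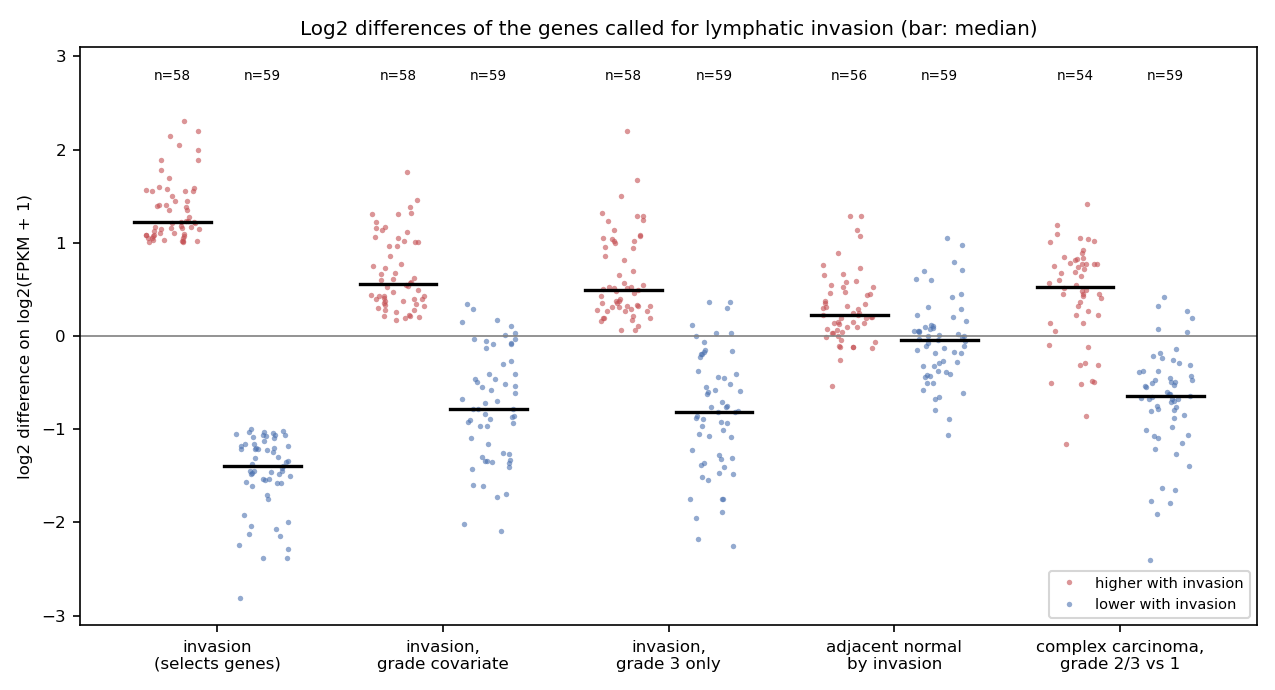
Log2 differences of the genes called for invasion, each point a gene, red for the 58 higher and blue for the 59 lower with invasion, in 5 comparisons, with bars at the median. The first column chose the genes and the columns for tumors with invasion share tumors. The medians move from 1.23 and -1.39 to 0.56 and -0.78 with grade, and stand at 0.53 and -0.64 in complex carcinomas without invasion.

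Adjacent normal tissue was compared between 9 dogs with invasion and 12 without. All 9 had grade 3 tumors and all 12 had grade 1 or 2 tumors, so that grade and invasion cannot be told apart here. No gene was called (0 of 14583, 0%; limma), with 835 at an unadjusted p under 0.05 (5.73%) and a smallest adjusted p of 0.774. The higher genes had a median log2 difference of 0.23 in normal tissue and the lower genes of -0.05, with -0.07 over all genes. Of the higher genes, 45 of 56 tested were above 0, against 38.9% of all genes, and 3 had an unadjusted p under 0.05 in that direction (background 1.47%). Of the lower genes 32 of 59 were below 0, against 61.1% of all genes.

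Each tumor was then set against the normal tissue of its own dog, which asks whether the step from normal tissue to tumor differed between the groups. In this paired fit 59 of 14657 genes were called (0.403%; limma), 9 with a larger and 50 with a smaller tumor minus normal difference when invasion was present (0.0614% and 0.341%). With the variance trend taken over mean expression the count was 47. Without the pairing of tissues by dog, that is with no replicate block, 23 were called. These 21 tumors are among those by which the genes named above were chosen, so the direction of those genes here is no independent evidence. Single dogs decided much of the count: it was 169 without CMT-344, 25 without CMT-013, 29 without CMT-193 and 24 without CMT-439 among dogs with invasion, and 31 without CMT-241, 36 without CMT-242 and 33 without CMT-685 among dogs without.

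ENSCAFG00000008756 was one of the 59. In the 12 dogs without invasion its tumor level exceeded the normal level in 10, by a mean of 2.1 ± 1.89 on the log2 scale (SD). In the 9 dogs with invasion it lay below the normal level in all 9, by -2.28 ± 1.00. The groups overlapped through 1 dog without invasion, at -1.09, which lay below the highest dog with invasion, at -0.53. The difference between the groups was -4.39 ± 0.64 (SE; limma, adjusted p = 0.00168). In the normal tissue itself the groups overlapped, at 15.4, 62.5 and 173 FPKM (lowest, median and highest) with invasion and 4.89, 35.97 and 90.7 FPKM without.

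ENSCAFG00000007857 was higher in the tumor than in the normal tissue in 12 of 12 dogs without invasion, by 4.87 ± 1.61 (SD), and in 2 of 9 with invasion, where the mean was -1.32 ± 1.70. The ranges did not meet, at 1.35 to 7.36 and -4.57 to 1.06. The gene was chosen in a fit that includes these tumors, so this separation is no independent evidence. How many other genes separate the dogs was not counted. All 9 dogs with invasion had grade 3 tumors and none of the 12 without did, so grade and invasion cannot be told apart. The difference of -6.19 ± 1.99 (SE) was not called (limma, unadjusted p = 0.0049, adjusted p = 0.166). This SE carries a variance trend taken over the mean tumor minus normal difference, which is extreme for this gene, and the spread between the dogs alone gave an SE of 0.727. With the trend taken over mean expression, an alternative chosen after seeing the data, the SE was 0.681 and the gene was called (limma, adjusted p = 9.54e-05). CMT-247 and CMT-471, the tumors with invasion and high levels of this gene, had no normal tissue sequenced and are absent from this comparison.

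**Figure D4:**
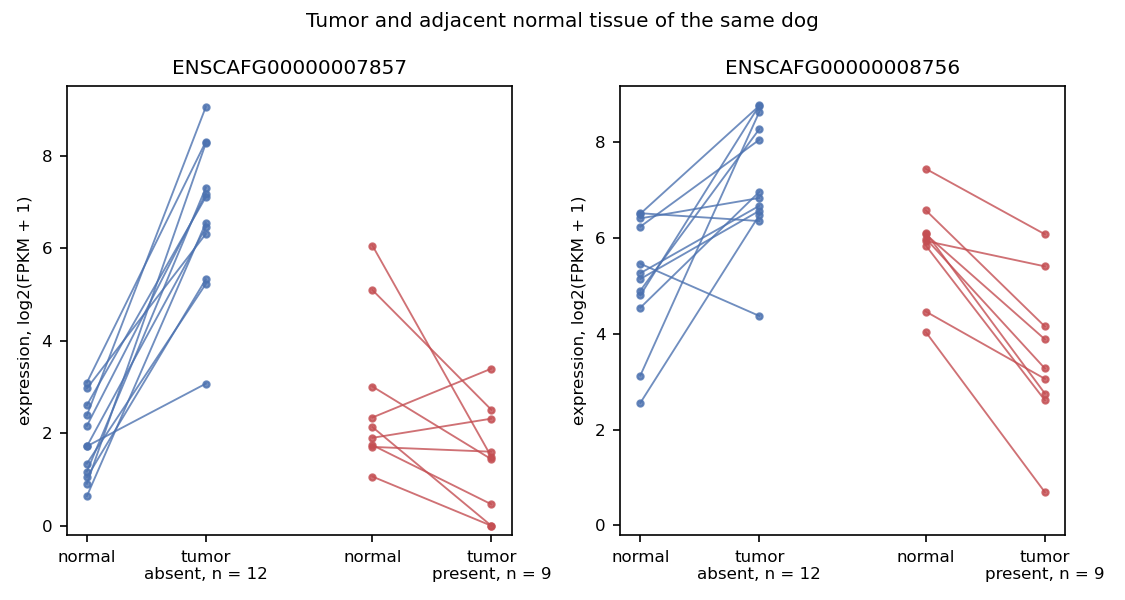
Expression on log2(FPKM + 1) of 2 genes in adjacent normal tissue and tumor, a line joining the tissues of a dog, for 12 dogs without invasion (blue) and 9 with invasion (red). ENSCAFG00000008756 goes down in 9 of 9 dogs with invasion and up in 10 of 12 without. ENSCAFG00000007857 goes up in 12 of 12 without and in 2 of 9 with invasion. The tumors shown took part in choosing the genes.

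The genes called with grade were not called within dogs, in tumors that had helped to choose them. ENSCAFG00000013961 was below the normal tissue in 8 of 9 tumors with invasion and in 5 of 12 without, a difference of -2.37 ± 0.72 (SE; limma, adjusted p = 0.137). ENSCAFG00000014361 was below it in 7 of 9 and 4 of 12, a difference of -1.28 ± 0.47 (adjusted p = 0.233). In normal tissue alone their differences by invasion were 0.05 ± 0.64 and 0.09 ± 0.45.

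Whether the effect of invasion differed with the estrogen receptor or with neutering was tested by interaction terms. For the receptor, with 6 negative and 8 positive tumors with invasion against 8 and 41 without, 0 of 14477 genes were called (0%; limma), with 268 at an unadjusted p under 0.05 (1.85%). For neuter status, over 60 dogs with a known status, 0 of 14474 genes were called (0%; limma), with 663 at an unadjusted p under 0.05 (4.58%). For ENSCAFG00000013961 the difference by invasion was -2.72 in receptor-negative and -1.37 in receptor-positive tumors. The positive minus the negative value was 1.35 (95% interval 0.095 to 2.604), with an adjusted p of 0.9999 (limma).

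Dogs with invasion died sooner. By the follow-up in the sample labels, 8 of 14 dogs with invasion died, between days 7 and 156, and 7 of 49 dogs without it, between days 1 and 457. Survival at 1 year was 41.7% (Kaplan-Meier, 95% interval 16.4% to 65.4%) with invasion and 86.4% (71.97% to 93.7%) without. The hazard ratio was 6.28 (2.23 to 17.7), and the log-rank test gave a permutation p of 0.00035 (two-sided). The clinical table holds other follow-up days for 41 of 56 dogs, and 5 dogs are dead there that are not dead in the labels. By that source 9 of 12 dogs with invasion and 10 of 44 without it died, and survival at 1 year was 34.4% (9.24% to 61.95%) and 66.8% (44.8% to 81.6%). The hazard ratio was 4.29 (1.71 to 10.7, permutation p = 0.00215).

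Within grade 3 the hazard ratio was 6.01, with an interval of 0.726 to 49.8 (permutation p = 0.0586), on 7 deaths among 13 dogs with invasion and 1 death among 7 without. With a single death on one side, the interval of this ratio reached below 1 and was too wide to compare its size with that over all grades. Survival with grade as a covariate was not tested. Survival here was time to any death recorded, and the cause of death was not used.

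**Figure D5:**
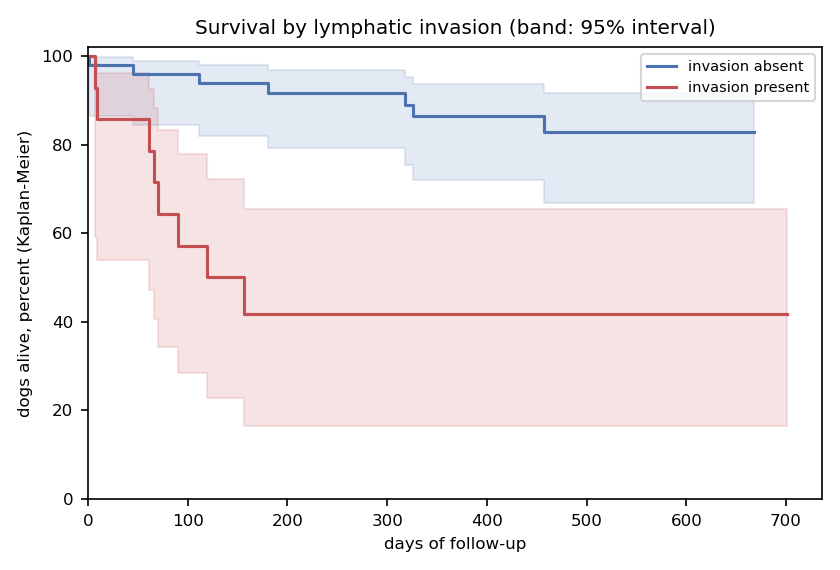
Kaplan-Meier survival in percent against days of follow-up for 14 dogs with invasion (red) and 49 without (blue), with bands for the 95% interval. The line of dogs with invasion falls to 41.7% by day 156 and stays there, and that of dogs without stands at 86.4% at 1 year.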

How the data were processed

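Poly(A) RNA of tissue kept in RNAlater was sequenced on an Illumina HiSeq instrument after TruSeq library preparation. Per the labels and the study's methods, the authors mapped reads to CanFam3.1 with TopHat2 2.0.9 and calculated FPKM with Cufflinks 2.1.1 from Ensembl annotation. The deposited FPKM table holds 24580 identifiers and no counts, so no count model was used. Of 43286 genes in the RefSeq table, 0 carried an Ensembl identifier. Invasion and follow-up came from the labels, histology, grade, class and cluster from the study's clinical table. Of the 63 tumors, 4 are simple adenomas in the labels, and alternatives left them out.

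On log2(FPKM + 1), limma 3.58.1 (R 4.3.3, intensity trend) was fitted to identifiers averaging 0.5 FPKM or more over the compared libraries, with Benjamini-Hochberg adjustment over all of them, after the script was tested on simulated data. A gene was called where the adjusted p was below 0.05 and the size of the log2 difference was 1 or more. Named genes were the 2 called genes in each direction with the largest difference and a mean of at least 5 FPKM in the higher group, or, with none called, the smallest p. Planned marker lists could not be run. Permutation tests used 100000 resamples, and Fisher's intervals are Clopper-Pearson at 95%. Mapped reads came from the study's sequencing table. The paired fit used the differences within dogs, so its trend ran over the mean difference. Paired tissues came from the same dog. Deviations from group means correlated between a dog's tissues by 0.23 on average, and 12 of 21 dogs matched their own tissue best. No pair of the 63 tumors had identical values (highest correlation 0.951). The tumors and lists were chosen with earlier results of these data known.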

Additional observations from a re-analysis of the deposited data

Results flagged for a closer look

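The step from adjacent normal tissue to tumor differed between dogs with and without invasion for 59 genes, which is a tested difference between groups. The difference for ENSCAFG00000008756 was -4.39 on the log2 scale. This gene had been chosen in a comparison that includes these tumors. All 9 dogs with invasion in that comparison had grade 3 tumors and none of the 12 without did, so grade and invasion cannot be told apart. No library stood apart by Dixon's criterion in the 27 checks of named genes and mapping rates in groups of 4 to 10 libraries. The full groups of 14 tumors with and 49 without invasion exceed that size, so these checks did not cover them as wholes. Among these tumors CMT-743 reached 2139 FPKM for ENSCAFG00000031273, and CMT-774 had the lowest mapping rate, 66.6%.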

How the results depend on the processing

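The count of 117 genes for invasion became 221 with a pseudocount of 0.1, 318 without a minimum difference, 7 within 2017, 0 with histological type as a covariate, 173 without the NMF3 tumors and 40 by the Wilcoxon rank-sum test. In 3 alternatives added after seeing the data it was 307 among the 21 dogs with normal tissue, 353 against grade 1 tumors alone, and 180 without the NMF4 and the grade 2 tumor with invasion. Leaving out single tumors gave 51 to 187. With grade, the 2 genes became 1 with a pseudocount of 0.1 or grade as a number, and 0 without a filter on low values, without the 4 tumors labelled adenoma, within 2017, without the NMF3 tumors or in grades 2 and 3 alone. Leaving out single tumors gave 0 to 5. The paired count of 59 was 47 with the variance trend over mean expression and 48 without a trend, both added after seeing the data, 36 without a filter, 23 with no replicate block, and 24 to 169 without single dogs. The 6 genes of complex carcinomas became 13 after quantile normalization. In grade 3 alone, the shares of solid or anaplastic type differed by 6.59 percentage points, those of the basal class by 5.49 and the hazard ratio was 6.01, none past the threshold. Of 90 alternative counts and tests, 69 kept the call or stayed within 1.5 times. These 69 include counts that stayed at 0. The count for invasion moved further in 8 of 17 alternatives, and the count with grade in 7 of 14. Of 124 alternative values of named genes, 100 kept their status as called or not called, 24 lost a call and 0 changed sign. The 100 include 14 values each for ENSCAFG00000008556 and ENSCAFG00000014214, which had no call to lose. ENSCAFG00000013961 kept its call with grade in 9 of 14 alternatives and ENSCAFG00000014361 in 7 of 14. The causes were not tested. Without counts, the depth behind a single value is unknown.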
